A study of Homo sapiens with 14 samples.

Results

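IFIH1, GCA and FAP are 3 neighbouring protein-coding genes on human chromosome 2. They were picked by symbol from a table of 35805 gene rows, and IFIH1 and GCA, 2 of the 3, reached the level needed to be tested. Their group means were known when they were picked, so the differences below are a description and carry no test. The study followed RNA levels in K562, an established human chronic myeloid leukaemia line, after loss of subunits of the silencing complexes HUSH and HUSH2. All cells carried dCas9-KRAB, a Cas9 without cutting activity joined to the KRAB repressor, which lowers transcription where a guide directs it. The labels list 14 total RNA libraries depleted of ribosomal RNA. Of these, 2 came from untransduced cells, 3 from cells with the control guide sgAAVS1, 2 from cells with guides against TASOR, 3 against TASOR2, 2 against MPP8 and 2 against PPHLN1 (Periphilin). Transduced cells were harvested at day 7.

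The deposited values are group means, with 1 value per gene and group, so no replicate SD, n or test over libraries can be given. The mean for TASOR2 was found to hold 2 of its 3 labelled libraries, and the files do not say which 2. Levels are log2 RPM, reads scaled to a common library depth, and are not corrected for gene length, so levels of different genes are not compared. Brackets of error are 95% Poisson counting intervals, which leave out the spread between guides and cultures. A gene was tested when at least 1 of its 6 group means was above 0, which left 16433 genes. It was called higher or lower when 2 means differed by at least 1 on the log2 scale, the higher mean was above 0 and the counting interval excluded 0. The geometric mean depth per library was lowest in TASOR2, at 5857937 reads, and highest in untransduced cells, at 7406968. RNA was taken from bulk cultures, so more cells with a transcript and more transcript per cell cannot be told apart.

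IFIH1 encodes MDA5, a cytosolic helicase of the RIG-I-like receptor family. MDA5 binds long double-stranded RNA, forms filaments and signals through the mitochondrial adaptor MAVS to interferon genes, and IFIH1 is itself an interferon-stimulated gene. GCA encodes grancalcin, a calcium-binding protein abundant in neutrophils. FAP encodes fibroblast activation protein, a cell-surface serine protease known from activated fibroblasts. HUSH recruits H3K9 methylation to silence transposons and other integrated sequences. It is built from TASOR, MPP8 and Periphilin, and TASOR2 stands in for TASOR in HUSH2.

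On build hg38 the table placed IFIH1 (ENSG00000115267.6) at chr2:162267079-162318703 on the minus strand, GCA (ENSG00000115271.10) at chr2:162318840-162371595 on the plus strand and FAP (ENSG00000078098.13) at chr2:162170684-162245151 on the minus strand. These bounds were identical to those of GENCODE release 29. IFIH1 and GCA are transcribed away from each other from 5′ ends 137 bases apart, whereas the 3′ end of IFIH1 and the 5′ end of FAP are 21928 bases apart. GENCODE gives GCA 10 transcripts. Of these, 3 start within 1000 bases of the IFIH1 end and 7 start farther away, the nearest at 25385 bases. The table has 1 value per gene, so reads from the near and far GCA starts cannot be told apart.

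RefSeq start windows (GRCh38.p14, 250 bases before to 50 after an RNA start) were matched for 2 of the 3 genes, IFIH1 and GCA. They are shown because the IFIH1 window, chr2:162318635-162318934 on the minus strand, covers the whole gap between IFIH1 and GCA, and because the far GCA window, chr2:162343882-162344181 on the plus strand, does not reach it. Both are printed 5′ to 3′ on the strand of their gene, and capitals mark matches on either strand to GAAA, any 2 bases, GAAA (the GAAA repeat), the core of the interferon-stimulated response element.
IFIH1 start window: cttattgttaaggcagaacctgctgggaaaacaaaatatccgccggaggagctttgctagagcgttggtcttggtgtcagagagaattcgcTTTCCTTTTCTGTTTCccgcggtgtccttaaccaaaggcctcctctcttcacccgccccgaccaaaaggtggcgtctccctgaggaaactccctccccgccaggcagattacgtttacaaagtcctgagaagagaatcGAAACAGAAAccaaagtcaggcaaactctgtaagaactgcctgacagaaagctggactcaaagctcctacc
GCA far start window: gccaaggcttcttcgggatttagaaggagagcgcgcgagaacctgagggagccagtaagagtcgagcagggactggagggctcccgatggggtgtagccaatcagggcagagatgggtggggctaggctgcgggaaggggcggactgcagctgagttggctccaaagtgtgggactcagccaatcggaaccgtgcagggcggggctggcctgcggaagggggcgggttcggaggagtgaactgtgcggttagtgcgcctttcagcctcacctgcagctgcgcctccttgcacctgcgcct

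The IFIH1 window held 3 matches to the GAAA repeat. A pair that overlap each other lie at chr2:162318828-162318837 and chr2:162318834-162318843, and the latter spans the GCA start as the table gives it. The remaining match lies at chr2:162318696-162318705, beginning 21 bases before the RefSeq IFIH1 start and across the IFIH1 end in the table. GCA has 4 RefSeq windows. The window at chr2:162318513-162318812 shared 178 bases with the IFIH1 window and held 1 match, and that at chr2:162318732-162319031 shared 203 bases and held 2. These are the same matches as in IFIH1, read from the other side. Both far GCA windows, chr2:162343882-162344181 and chr2:162344118-162344417, held 0 matches. Among 35116 RefSeq windows of 300 bases, 3.57% held at least 1 match and 0.259% held 2 or more. The IFIH1 window held no match to TTCNNNGAA, the STAT dimer motif, which 7.66% of windows held, and none to TATAAA, which 11.5% held. It contained 12 CpG sites and 50.7% GC, against medians of 14 and 58.7% over all windows. A match describes letters and not binding, which was not measured here.

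IFIH1 was low in 3 groups and several-fold higher in the other 3. Its level was 2.64 on the log2 scale in sgAAVS1 cells (counting interval 2.36 to 2.90), which is 6.23 RPM. It was 3.16 (2.90 to 3.40) in untransduced cells and 2.84 (2.54 to 3.13) in TASOR knockdown. These low groups rested on geometric means of 38.7, 66.0 and 49.8 IFIH1 reads per library. In TASOR2 knockdown the level was 5.39 (5.26 to 5.52), or 41.9 RPM. MPP8 knockdown gave 5.04 (4.89 to 5.18), or 32.9 RPM, and PPHLN1 knockdown gave 5.40 (5.27 to 5.52), or 42.2 RPM. The high groups held 245, 195 and 252 IFIH1 reads per library. No interval of a high group overlapped that of a low group, by counting error alone, and IFIH1 was picked with these means known. For scale, 20 of the 16433 tested genes were called higher in each high group than in each low group, IFIH1 among them.

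Against sgAAVS1, IFIH1 differed by 2.75 on the log2 scale in TASOR2 knockdown (2.45 to 3.05), a 6.72-fold higher level. The difference was 2.40 (2.10 to 2.71), or 5.28-fold, in MPP8 knockdown and 2.76 (2.46 to 3.06), or 6.77-fold, in PPHLN1 knockdown. In TASOR knockdown it was 0.20 (-0.20 to 0.60), or 1.15-fold, which was not called. IFIH1 and GCA were both called higher in TASOR2, where 2.1% of the 16433 tested genes were called higher, in MPP8 (1.56%) and in PPHLN1 (2.73%). Neither was called in TASOR, where 1.84% of tested genes were called higher and 0.31% lower. IFIH1 ranked 11 by size of difference among all tested genes in TASOR2, 23 in MPP8 and 33 in PPHLN1. These comparisons share the sgAAVS1 libraries, so they are not independent of each other. The median over all tested genes also lay above 0, at 0.16 in TASOR, 0.07 in TASOR2, 0.12 in MPP8 and 0.17 in PPHLN1. Relative to it, IFIH1 differed by 0.04, 2.68, 2.28 and 2.59 in that order.

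**Figure D1:**
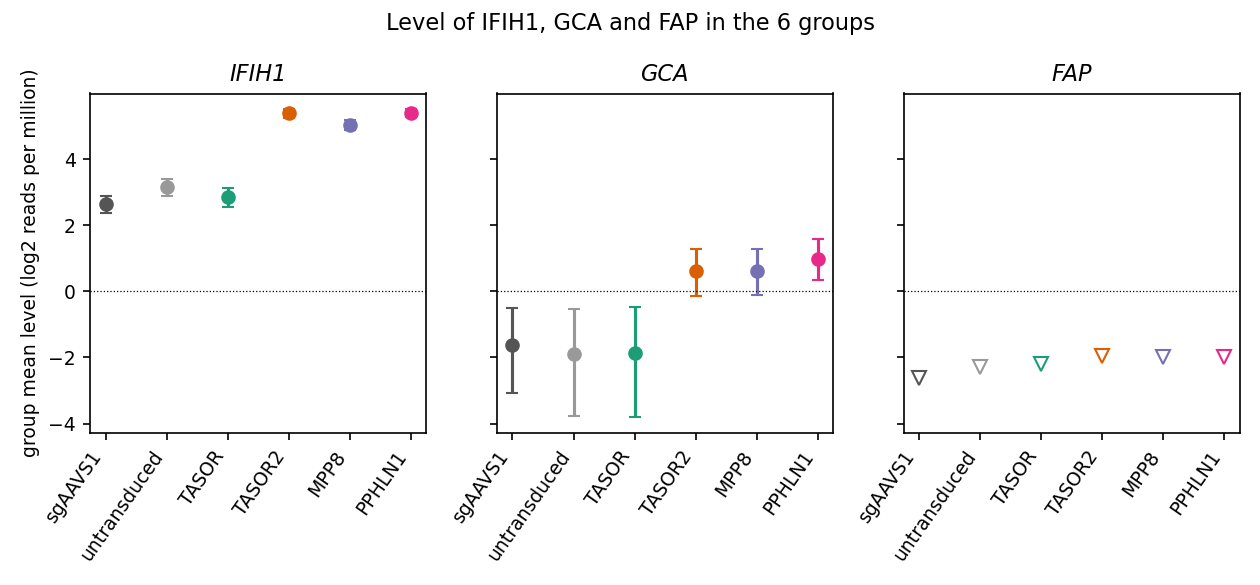
Group means of IFIH1, GCA and FAP in the 6 groups, in log2 RPM, with 95% counting intervals as bars and open triangles for the limit that a count of 0 allows. IFIH1 and GCA lie higher in TASOR2, MPP8 and PPHLN1 knockdown than in the other 3 groups, and FAP has no reads in any group.

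Untransduced cells, the other control, gave the same calls for both genes. IFIH1 differences were smaller than against sgAAVS1 in TASOR2, MPP8 and PPHLN1, and of opposite sign in TASOR. IFIH1 was 0.52 higher in untransduced than in sgAAVS1 cells (0.14 to 0.89), a difference below the size needed for a call. Of the tested genes, 1.3% were called higher and 0.231% lower in that comparison. Against untransduced cells, IFIH1 differed by 2.23 (1.95 to 2.52) in TASOR2, 1.88 (1.60 to 2.18) in MPP8 and 2.24 (1.96 to 2.53) in PPHLN1. IFIH1 and GCA were both called higher in these 3 comparisons, as were 1.3%, 1.17% and 1.53% of tested genes. In TASOR the IFIH1 difference from untransduced cells was -0.31 (-0.70 to 0.07), which was not called, where 1.2% of tested genes were called higher and 0.791% lower.

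The knockdowns were then compared directly, with no control group between them. IFIH1 was 2.55 higher in TASOR2 than in TASOR knockdown (2.23 to 2.87), 2.20 higher in MPP8 than in TASOR (1.88 to 2.53) and 2.56 higher in PPHLN1 than in TASOR (2.24 to 2.88). All 3 were called, for IFIH1 and for GCA, where 1.32%, 0.748% and 1.33% of tested genes were called higher. Among the high groups the differences were small. IFIH1 in MPP8 was lower than in TASOR2 by a log2 difference of -0.35 (-0.55 to -0.15), and PPHLN1 and TASOR2 differed by 0.01 (-0.17 to 0.19). PPHLN1 exceeded MPP8 by 0.36 (0.17 to 0.55). None of these reached the size for a call, for IFIH1 or GCA. The shares of tested genes called higher and lower were 3.79% and 1.44% for MPP8 against TASOR2, 4.86% and 1.36% for PPHLN1 against TASOR2, and 0.779% and 0.529% for PPHLN1 against MPP8. From lowest to highest, the order of IFIH1 levels was sgAAVS1, TASOR, untransduced, MPP8, TASOR2 and PPHLN1. By counting error alone, sgAAVS1 and TASOR, TASOR and untransduced, and TASOR2 and PPHLN1 could not be separated, as each of those intervals held 0.

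Some information on single libraries was left in the means. Each mean of log2 whole reads fixes the product of the reads in its libraries, and that product can be split into whole numbers in few ways. For IFIH1 in TASOR knockdown the product was 2482. Its most even split is 34 and 73 reads and the next is 17 and 146, so the 2 TASOR libraries differed by at least 2.15-fold in IFIH1 reads, or 1.10 on the log2 scale. The most even splits elsewhere were closer, with 65 and 67 reads in untransduced cells, 241 and 250 in TASOR2, 180 and 211 in MPP8 and 226 and 280 in PPHLN1. For sgAAVS1 it was 38, 39 and 39. These are the smallest spreads the means allow and not measured values, and wider splits fit equally well. They are raw reads, uncorrected for the depth of each library.

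For scale, some products have exactly 2 prime factors, which fixes both libraries' reads when neither held 1 read. In TASOR, 174 such genes with a geometric mean of 150 to 1000 reads had a median absolute log2 ratio of 0.06 between the 2 libraries. At 25 to 100 reads, the range that holds IFIH1, 126 such genes had a median of 0.26, and 3 of them (2.38%) reached the smallest ratio IFIH1 can have. The TASOR mean of IFIH1 is therefore an average over 2 libraries that differ in this gene, and which guide gave more reads is not known.

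GCA means divided the groups in the same way, at a much lower read depth. GCA was tested only because its means in TASOR2, MPP8 and PPHLN1 were above 0, so this division is a description. Its level was -1.63 (-3.07 to -0.51) in sgAAVS1, -1.89 (-3.76 to -0.53) in untransduced cells and -1.87 (-3.81 to -0.48) in TASOR knockdown. These correspond to 0.324, 0.27 and 0.273 RPM, or about 2.01, 2 and 1.9 reads per library. In TASOR2, MPP8 and PPHLN1 knockdown the levels were 0.61 (-0.15 to 1.27), 0.63 (-0.12 to 1.28) and 0.99 (0.34 to 1.57). The geometric mean reads per library there were 8.94, 9.17 and 11.8. Each mean of the high groups lay above each mean of the low groups, a division read off these same means. No interval of a high group overlapped that of a low group, by counting error alone. GCA was among the 20 of 16433 tested genes called higher in each high group than in each low group.

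Against sgAAVS1, GCA differed by 2.24 (0.84 to 3.86) in TASOR2, a 4.72-fold higher level. The difference was 2.26 (0.87 to 3.87), or 4.78-fold, in MPP8 and 2.62 (1.29 to 4.19), or 6.13-fold, in PPHLN1. Its interval in TASOR, -0.25 (-2.57 to 1.85), is wide enough to hold a change of either sign larger than the size for a call, so a difference was not detectable at this depth. The same holds for untransduced cells at -0.26 (-2.53 to 1.81). GCA was 2.48 (0.85 to 4.57) higher in TASOR2 than in TASOR, and the 3 high groups differed from each other by 0.02 to 0.38 with intervals that held 0. The read products showed that 1 TASOR library held 0 GCA reads and the other 4, and that at least 1 sgAAVS1 library held 0. Those libraries enter the means as 0.9 reads, so the sizes of the GCA differences from sgAAVS1 and TASOR depend in part on that value. In PPHLN1 knockdown the most even split was 10 and 14 reads. GCA overlaps KCNH7, a potassium channel gene on the opposite strand, by 189 bases at its 3′ end, and KCNH7 had no reads in any group.

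FAP had no reads in any library that entered the 6 means. With 3 counts over a group as the limit that a count of 0 allows, its level could be at most 0.161 RPM in sgAAVS1 and 0.203 in untransduced cells. The limit was 0.216 in TASOR, 0.256 in TASOR2, 0.253 in MPP8 and 0.252 in PPHLN1. No difference between groups can be given for FAP. Of 9 stromal marker genes, 3 were tested and 3 (PDGFRA, LUM and POSTN) had no reads in any group, while the summed log2 level of the list ran from 5.84 in TASOR2 to 6.39 in MPP8. The sum rests mainly on COL1A1 and COL1A2. PDGFRB, a pericyte and fibroblast receptor, was the 1 stromal marker called, higher in PPHLN1 by 1.11 (0.00 to 2.26). Its lower limit rounds to 0.00, so the call is on the border of the rule. It is 1 of 3 tested stromal markers, beside 2.73% of all tested genes called higher in PPHLN1, and 3 genes are too few to compare with that share. COL1A1 and COL1A2 differed by -0.19 (-0.34 to -0.04) and -0.29 (-0.59 to 0.01) in PPHLN1 and were not called.

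Few genes around the members could be measured. The table holds 24 genes that start within 2 Mb of the IFIH1 start, 21 of them other than the members. In 16 of the 24 no group had a read, among them FAP, DPP4 (a protease gene related to FAP), GCG (proglucagon), SLC4A10, KCNH7 and FIGN. Only TANK, PSMD14, IFIH1 and GCA were tested. TANK, which encodes an adaptor that binds TRAF proteins and TBK1, had log2 levels from 5.98 in sgAAVS1 to 6.36 in TASOR2. It differed from sgAAVS1 by 0.22 (0.10 to 0.34) in TASOR, 0.38 (0.26 to 0.50) in TASOR2, 0.06 (-0.08 to 0.19) in MPP8 and 0.18 (0.05 to 0.31) in PPHLN1. PSMD14, a deubiquitinase subunit of the proteasome, differed by 0.00 (-0.10 to 0.11), 0.24 (0.14 to 0.34), 0.10 (-0.01 to 0.20) and 0.09 (-0.02 to 0.19). Neither was called in any knockdown. The 2 of the 4 tested genes that were called higher in TASOR2, MPP8 and PPHLN1 are both members, picked with their values known. Over all tested genes, 2.1%, 1.56% and 2.73% were called higher in these knockdowns. GCA was tested only through these same groups, so the window count is a description. TANK and PSMD14 start at -1130.2 and -959 kb from the IFIH1 start, on the FAP side, and no gene beyond GCA was tested, so the window does not show how far along the chromosome the differences extend.

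**Figure D2:**
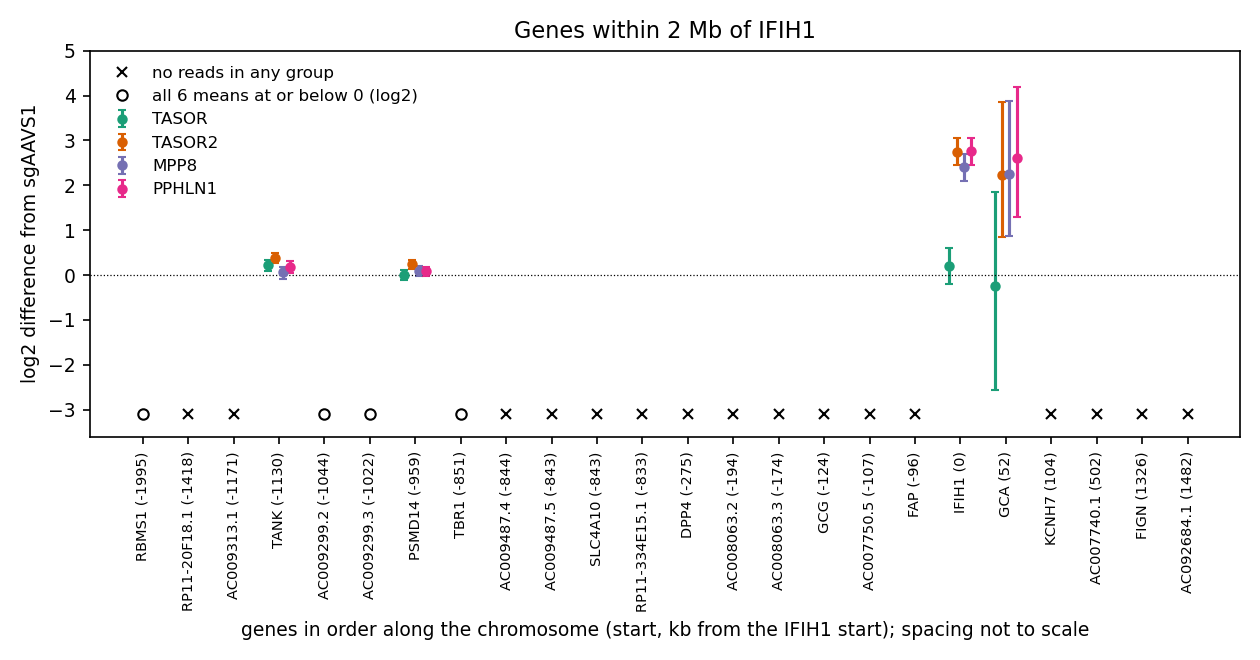
Log2 difference from sgAAVS1 of the tested genes within 2 Mb of the IFIH1 start, in the order of their position, with 95% counting intervals, crosses for genes without reads and open circles for genes below the level for testing. IFIH1 and GCA lie between 2.24 and 2.76 in TASOR2, MPP8 and PPHLN1 knockdown, while TANK and PSMD14 lie between 0.00 and 0.38 in all 4 knockdowns.

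IFIH1 and GCA were set beside other gene pairs arranged the same way. The table held 1072 pairs of tested genes on opposite strands that start at most 1000 bases apart and are transcribed away from each other. Their median distance was 135.5 bases, and 542 pairs were as close as IFIH1 and GCA or closer. Both genes were called higher in 0 pairs in TASOR, 3 (0.28%) in TASOR2, 6 (0.56%) in MPP8 and 6 (0.56%) in PPHLN1. A single gene of the pair was called higher in 33, 13, 13 and 29 pairs. Besides IFIH1 and GCA, the pairs with both genes higher in TASOR2, MPP8 and PPHLN1 were ZNF829 with ZNF568, whose starts are 38 bases apart, and ZNF528-AS1 with ZNF528, 83 bases apart. ZNF829 and ZNF568, both KRAB zinc finger genes, differed by 2.58 and 2.28 in TASOR2, 1.58 and 1.55 in MPP8 and 2.70 and 2.85 in PPHLN1. In TASOR they differed by -0.31 and 0.82 and were not called. ZNF528-AS1 and ZNF528 differed by 1.46 and 1.77, 3.21 and 1.79, and 3.53 and 2.28 in the same 3 knockdowns, and by 1.25 and 0.63 in TASOR. The other 3 pairs, called in MPP8 and PPHLN1, were ZNF404 with RP11-15A1.2, RP11-15A1.3 with RP11-15A1.2 and ZNF850 with CTD-2162K18.4. The pairs of ZNF404 and RP11-15A1.3 share RP11-15A1.2, so they are not separate examples. All 5 other pairs lie on chromosome 19. Libraries were strand-specific per the labels, but nothing states whether counting used strand, so reads of closely spaced partners may not be fully separated.

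**Figure D3:**
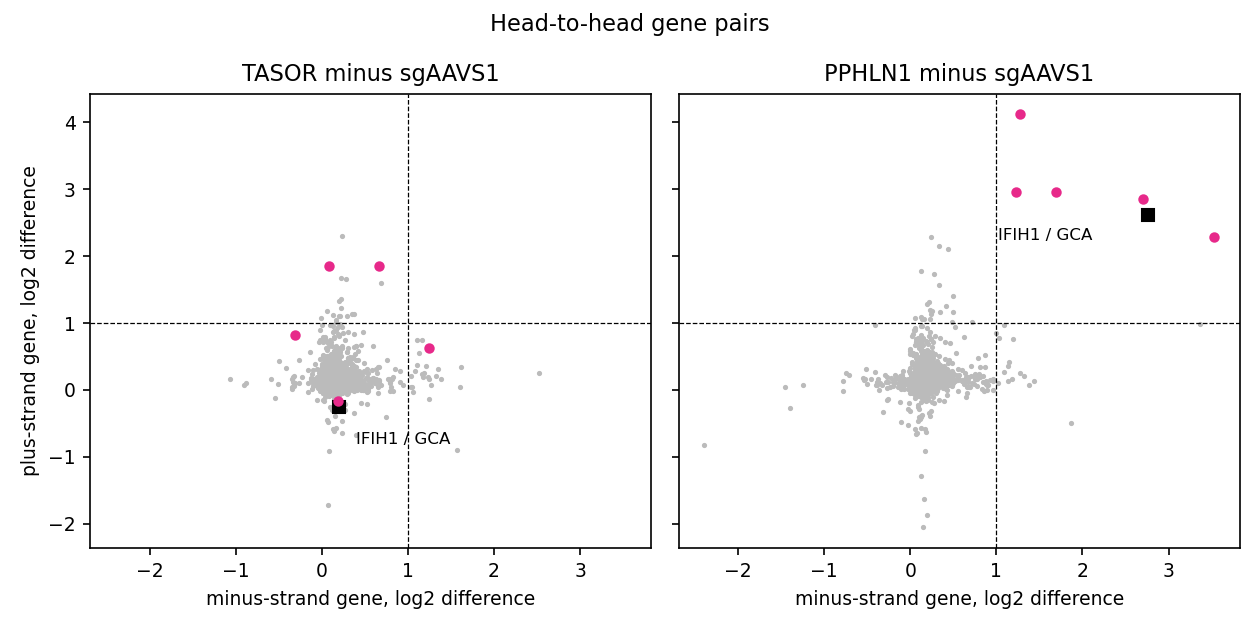
Log2 difference from sgAAVS1 of the minus-strand gene against that of the plus-strand gene for 1072 head-to-head pairs (grey points), in TASOR and PPHLN1 knockdown, with dashed lines at a difference of 1. IFIH1 with GCA (black square) lies at 0.20 and -0.25 in TASOR and at 2.76 and 2.62 in PPHLN1, where it sits with the other pairs that have both genes higher (coloured points).

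Other genes of the MDA5 pathway were taken as a list. The list of 47 genes of RIG-I-like receptor signalling, which leaves out IFIH1, was wholly present in the table, and 39 genes were tested. The number called higher was 0 in TASOR, 0 in TASOR2, 0 in MPP8 and 1 in PPHLN1, and 0 were called lower in each. Over all tested genes, 1.84%, 2.1%, 1.56% and 2.73% were called higher and 0.31%, 1.99%, 0.31% and 0.578% lower. The counts of the list lie near these shares and are no result about the list. The list medians were 0.17, 0.15, 0.12 and 0.18 in that order, beside 0.16, 0.07, 0.12 and 0.17 over all tested genes. By the same rule IFIH1 was called in 3 of these 4 comparisons.

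Among the sensors, DDX58 encodes RIG-I, which binds short double-stranded RNA with a 5′ triphosphate. Its level was 2.34 in sgAAVS1, 2.50 in untransduced cells and 2.36 in TASOR, and 3.22, 3.30 and 3.20 in TASOR2, MPP8 and PPHLN1. Its differences from sgAAVS1 were 0.03 (-0.44 to 0.49), 0.88 (0.47 to 1.29), 0.97 (0.56 to 1.37) and 0.87 (0.46 to 1.28) for TASOR, TASOR2, MPP8 and PPHLN1. They fell short of the size for a call, although the last 3 intervals excluded 0. DHX58, which encodes LGP2, a relative of MDA5 without signalling domains that modulates it, was the 1 gene called. It differed by 0.23 (-0.04 to 0.50) in TASOR, 0.40 (0.13 to 0.67) in TASOR2, 0.91 (0.66 to 1.16) in MPP8 and 1.29 (1.06 to 1.53) in PPHLN1. The adaptor gene MAVS, at 9.10 in sgAAVS1, differed by 0.13 (0.09 to 0.17), -0.12 (-0.16 to -0.07), 0.12 (0.07 to 0.16) and 0.15 (0.10 to 0.19). The ligand genes IFNB1, IFNA1, IFNA2, IFNL1, IFNL2 and IFNL3 and the receptor gene IFNLR1 had no reads in any group.

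**Figure D4:**
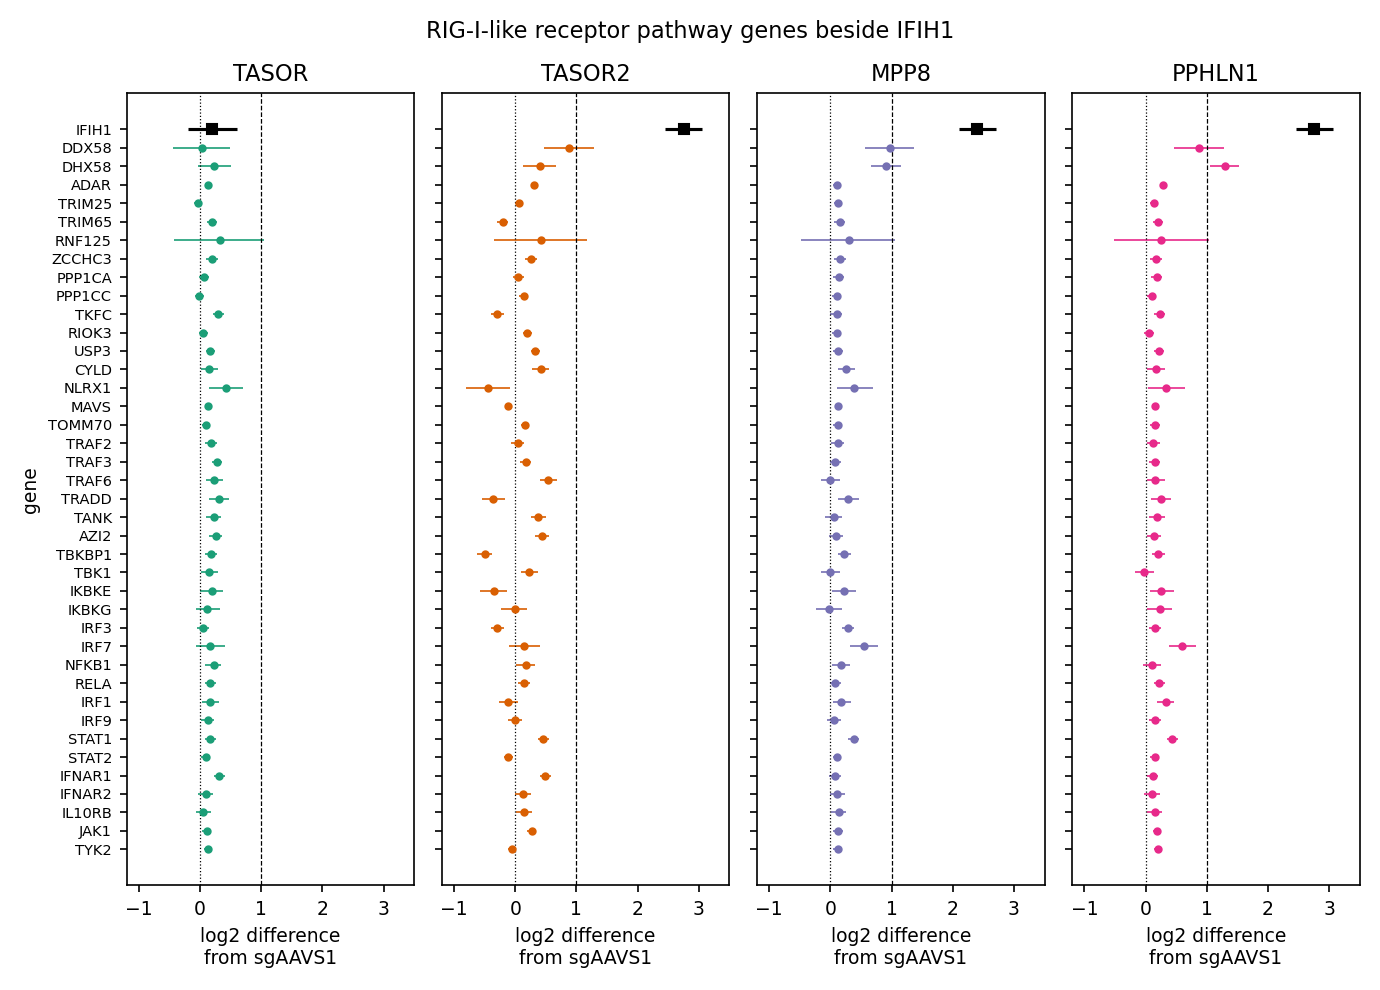
Log2 difference from sgAAVS1 of IFIH1 and the tested genes of the RIG-I-like receptor list in each knockdown, with 95% counting intervals and a dashed line at a difference of 1. IFIH1 lies at 2.75, 2.40 and 2.76 in TASOR2, MPP8 and PPHLN1, and DHX58 at 1.29 in PPHLN1 is the 1 listed gene past the size for a call.

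The genes whose pattern over the 6 groups was most like that of IFIH1 were ranked by Euclidean distance between log2 means, each gene centred on its own mean. The nearest was HERC6, which encodes an interferon-induced HECT-type protein, at a distance of 0.34 (Pearson r = 0.994 over 6 groups). It was followed by PSMB8 at 0.43, SP110 at 0.61, PSMB9 at 0.62, GCA at 0.65, ZNF829 and SAMD9L at 0.70 each and PSMB8-AS1 at 0.72. PSMB8 and PSMB9 encode catalytic subunits of the immunoproteasome, SP110 a nuclear body protein and SAMD9L an antiviral factor. HERC6 had levels of -1.0, -0.60 and -0.80 in sgAAVS1, untransduced cells and TASOR, and of 1.91, 1.18 and 1.54 in TASOR2, MPP8 and PPHLN1. ZNF829 lay at -1.19, -0.89 and -1.50 in the same low groups. HERC6, ZNF829, GCA and PSMB8-AS1 were thus tested only through groups where they are high. Their low means rest on few reads, so their distances to IFIH1 are a description. PSMB8 had 1.36, 1.47 and 1.39, then 3.66, 3.59 and 3.64. PSMB8, PSMB9 and PSMB8-AS1 lie within a few kilobases of each other on chromosome 6, so they are not separate examples.

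GCA was nearest to PSMB8-AS1 at a distance of 0.52, then to PSMB8 at 0.55, IFIH1 at 0.65 and PSMB9 at 0.69. PSMB8-AS1 lay at -2.73, -2.89 and -2.87 in sgAAVS1, untransduced cells and TASOR, below the limit that a count of 0 allows there. Its distances and differences therefore depend on the 0.9 reads put in place of 0 and are not measured sizes. The correlation of IFIH1 with GCA over the 6 groups was 0.979, and the 6 means share libraries with all other genes. FAP has no pattern to compare. Ranked by Pearson correlation, which ignores size, 2 of the 8 nearest genes to IFIH1 were shared with the ranking by distance (HERC6 and PSMB8), and GCA fell to rank 33. Of the 8 genes nearest to IFIH1 by distance, 3 (GCA, PSMB8 and PSMB8-AS1) held the GAAA repeat in a RefSeq start window, beside 4.38% of the 27305 genes with such a window. The count is a description, since GCA shares its matches with IFIH1 and the PSMB8 genes lie together.

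**Figure D5:**
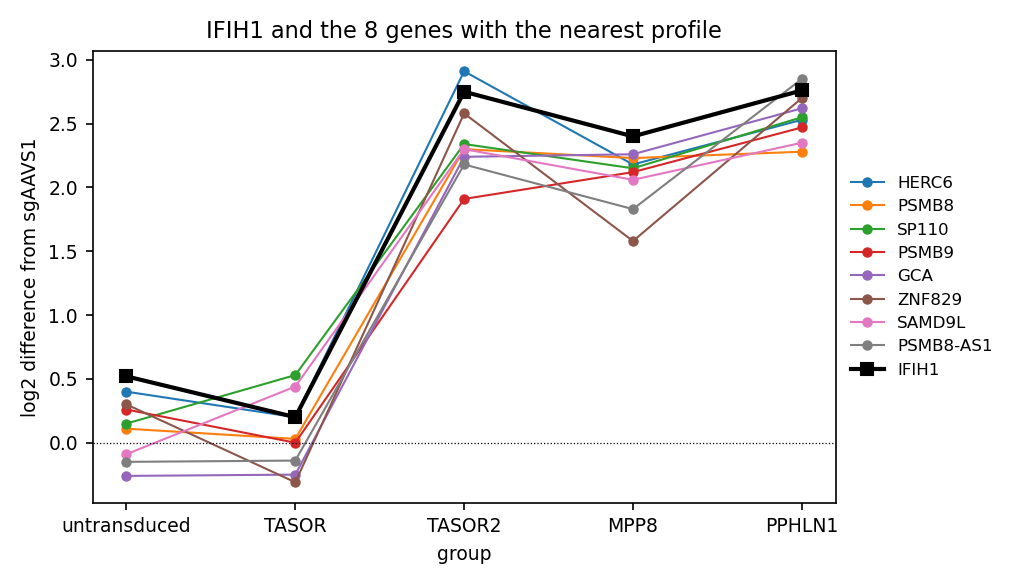
Log2 difference from sgAAVS1 of IFIH1 (black squares) and its 8 nearest genes (coloured points) in untransduced cells and the 4 knockdowns, joined by lines for reading only. Each gene lies between 1.58 and 2.91 in TASOR2, MPP8 and PPHLN1, and between -0.31 and 0.53 in untransduced cells and TASOR, with the values of PSMB8-AS1 set by the substitute for 0 reads in its low groups.

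Knockdown of the targets was incomplete, with 6.56% of the sgAAVS1 level of TASOR (FAM208A in the table) left, 37.5% of TASOR2 (FAM208B), 28.2% of MPP8 (MPHOSPH8) and 40.8% of PPHLN1. The depth of knockdown thus differed between groups, and its part in the IFIH1 and GCA levels was not tested. All 8 erythroid markers, which define K562, were tested, and their summed log2 level ran from 9.92 to 10.19 over the groups. Of 8 neutrophil and myeloid markers, 3 were tested, S100A8 and S100A9 had no reads in any group, and the summed level ran from 3.16 in TASOR2 to 4.16 in PPHLN1, with 3.71 in sgAAVS1 and 3.60 in MPP8. The neutrophil receptor gene FCGR3B was called higher in PPHLN1, by 1.96 (0.51 to 3.61), and differed by 0.24 (-1.91 to 2.27) in TASOR2 and 0.36 (-1.71 to 2.34) in MPP8. FCGR3B was tested only because its PPHLN1 mean, 0.33, was above 0, so its call is a description. Its sgAAVS1 mean was -1.63. The part of these markers in the GCA level was not tested. Of 6 lymphoid markers, 4 were tested, MS4A1 had no reads, and the sum ran from 5.10 in TASOR2 to 5.62 in MPP8. CD79A was called higher in PPHLN1, by 1.70 (0.42 to 3.11). It too was tested only because its PPHLN1 mean, 0.51, was above 0. The calls in PPHLN1 were 1 of 3 tested myeloid and 1 of 4 tested lymphoid markers, beside 2.73% of all tested genes. So few markers cannot be compared with that share.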

How the data were processed

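Per the submitters' processing notes, reads were processed with cutadapt and Bowtie2 on build hg38. Versions, read counter and strand setting were not stated. The table the authors deposited gives group means. Its untransduced column is mean log2 RPM, per the file headers and low values. The values of the remaining 5 deposited columns are quotients of 2 log2 means, and multiplying each by the untransduced value gave the group mean. Low values were whole-read means (relative tolerance 0.001), with 0 reads set to 0.9, which gave depth and the number of libraries per mean. No value column was left unused.

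Rows sharing a symbol were reduced to 1 (16 dropped). Counting intervals of differences take the exact conditional Poisson form at 95% confidence. The counts put into all intervals were the number of libraries times the geometric mean reads, not observed totals. The intervals are therefore approximate, most of all for GCA. The intervals and the limit of 3 counts cover counting error only. The planned limma test needs single libraries, which were not analysed here. Python 3.11.15, numpy 2.4.6, pandas 2.3.3, scipy 1.17.1, sympy 1.14.0 and matplotlib 3.10.9 were used.

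The members and gene lists were chosen with earlier results of these data known. Named genes were the members, the 4 targets, tested genes of the 2 Mb window, called genes of the pathway list with its sensors and adaptor, the 8 genes nearest to IFIH1 and 4 nearest to GCA, and up to 6 head-to-head pairs. Alternatives were another filter, threshold, scaling, control, GC correction, window and pair distance.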

Additional observations from a re-analysis of the deposited data

How the results depend on the processing

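Of 74 alternative values for IFIH1 and GCA, 70 stayed within the counting interval of the reported value, 4 moved beyond it and no call changed. The 74 cover scaling, GC correction and control, and not the filter or threshold. GCA intervals are wide, as from 0.84 to 3.86 in TASOR2 against sgAAVS1, so staying within them says little for GCA. No called difference changed sign, but 7 values of differences that were not called did. These were IFIH1 in TASOR (-0.09 with quantile normalization and -0.31 against untransduced cells, from 0.20), GCA in TASOR (0.02 against untransduced cells, from -0.25), GCA in MPP8 against TASOR2 (-0.04 with median centring and -0.15 with quantile normalization, from 0.02) and IFIH1 in PPHLN1 against TASOR2 (-0.11 and -0.12, from 0.01). The 4 that moved were IFIH1 with untransduced cells as the control, at -0.31 in TASOR, 2.23 in TASOR2, 1.88 in MPP8 and 2.24 in PPHLN1. When a mean above 2 was required, GCA was no longer tested, and the window count fell from 2 to 1 in each of TASOR2, MPP8 and PPHLN1. With the same filter, pairs with both genes higher fell to 1 from 3 in TASOR2, to 1 from 6 in MPP8 and to 1 from 6 in PPHLN1. A threshold of 1.5 left 0 genes of the pathway list called in PPHLN1. Over all tested genes, the number called higher ranged from 75 to 383 in TASOR (303 as reported), 135 to 411 in TASOR2 (345), 100 to 312 in MPP8 (256) and 175 to 521 in PPHLN1 (449). The number called lower ranged from 9 to 130 in TASOR (51), 102 to 513 in TASOR2 (327), 4 to 154 in MPP8 (51) and 26 to 149 in PPHLN1 (95). With transcript GC content removed, the TASOR2 difference was 2.63 for IFIH1 and 1.98 for GCA.

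No paired analysis was possible because the columns hold group means that carry no replicate number. Leaving out each replicate was not run for the same reason. GCA rests on about 2 reads per library in the low groups, and its interval for TASOR against sgAAVS1 (-2.57 to 1.85) holds differences well beyond the size for a call, so those were not detectable either.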

Other observations

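Of the 16433 tested genes, 20 were called higher in each of TASOR2, MPP8 and PPHLN1 knockdown than in each of sgAAVS1, untransduced cells and TASOR knockdown, and IFIH1 and GCA are 2 of them. The genes named here were chosen after their values were seen. The list holds the interferon-stimulated genes IFI6, IFIT2, USP18, DDX60L, HERC6, SP110, SAMD9 and SAMD9L, the antigen-processing genes PSMB8, PSMB9 and TAP1, and the zinc finger genes ZNF112, ZNF528 and ZNF578. Its remaining genes are GIMAP2, PAXIP1-AS2, RP4-665J23.4 and RP11-5C23.1. The share of such kinds of genes among all tested genes was not counted. GCA, HERC6 and IFIT2 had means below 0 in all low groups, so they were tested only through the groups where they are high. IFI6 had log2 levels of 2.42 in sgAAVS1, 2.59 in untransduced cells and 2.94 in TASOR, and of 4.45, 4.60 and 4.64 in TASOR2, MPP8 and PPHLN1. USP18, which encodes a protease that removes ISG15, had 0.46, 0.56 and 0.45, then 2.19, 1.78 and 1.58. Of the 20 genes, 11 lay within 100 kb of another gene of the list. These are IFIH1 with GCA, SAMD9 with SAMD9L and PAXIP1-AS2 with RP11-5C23.1 on chromosome 7, PSMB8, PSMB9 and TAP1 on chromosome 6, and ZNF528 with ZNF578 on chromosome 19. How often other tested genes lie this close was not counted, so the 11 is a description.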
